A study of Mus musculus with 1507 samples.

Results

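The mouse embryonic stem (ES) cells described here are the 189 wells whose titles end in ES on plates E1, E2, B1 and B2 of the plate experiment, out of 1507 samples in the series. They were chosen by that label alone, and plate E1 held 40 of them, E2 42, B1 58 and B2 49. The same plates held 195 wells of primitive endoderm (PrE) cells, which serve as the comparison. The series set out RamDA-seq, a single-cell total RNA method in which not-so-random and oligo-dT primers copy RNA along its whole length, with or without a poly(A) tail, and the plate experiment asked how far wells of one cell type differ between plates. The submitters' design text names 2 experimenters and 2 days, without tying a plate to either, and the methods give the advanced form of the protocol for these plates. What the letters E and B stand for is not given in the labels.

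All cells were of the 5G6GR line, an ES line made from EB5 cells by random integration of a construct that expresses Gata6 fused to the glucocorticoid receptor, followed by an IRES and a puromycin resistance gene. The ES group was grown without feeders on gelatin in medium with 10% fetal calf serum, leukemia inhibitory factor (LIF), puromycin and blasticidin. The PrE group was the same line cultured for 72 hours with dexamethasone, which moves the fusion protein into the nucleus, in place of blasticidin. Both groups therefore carried the transgene and were kept in puromycin. Single cells of all cell cycle phases were sorted into lysis buffer. Because every well came from 1 line and the labels name no separate cultures, plates stand for repeats of the handling, and p-values measure the spread between plates only.

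ES cells are derived from the inner cell mass of the blastocyst and keep the capacity to form all tissues of the embryo. In serum and LIF their identity is held by a network of transcription factors around Pou5f1 (Oct4), Sox2 and Nanog, with Esrrb, Klf factors and Tfcp2l1 as the naive arm, and this network is known to be expressed unevenly from cell to cell in this medium. They cycle fast, with a short G1 phase, so a random sample of cells is spread over DNA synthesis and mitosis, and transcripts made only in one phase differ strongly between cells. Expression is given as TPM, the share of a transcript in its well after division by its length, scaled to the same total in each well, so it carries no depth. The number of reads behind a value is therefore unknown for these wells, and no counting interval can be given.

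Most ES wells held a full transcriptome, and a few held almost nothing. Counting transcripts at a TPM of at least 0.1, 14 of the 189 ES wells held 26 to 79 transcripts: 1 on E1, none on E2, 5 on B1 and 8 on B2. Of these wells, 13 lay in well columns 1 and 2, where 37.1% of 35 ES wells were this low, against 0.649% of 154 ES wells in the other columns. In such wells a handful of RNAs made up the whole profile: Mir6236 alone took 61.4% of TPM in 1 well of B2, and Gm24507 took 47.5% in 1 well of B1. Together with 2 further wells that lay more than 1.5 interquartile ranges below the lower quartile of their plate, 16 wells are called wells with few transcripts below (1, 0, 6 and 9 in the order E1, E2, B1, B2). The labels do not say whether these wells received a cell. The analysis was laid out on all wells, with leaving these out as an alternative. After the wells were seen, the order was turned. Results are given with them (all wells) and without them (173 wells, 39, 42, 52 and 40 by plate), and values are from the 173 wells unless all wells are named. The same rule left out 11 of the 195 PrE wells (2, 2, 1 and 6 by plate), so PrE values are from 184 wells.

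**Figure D1:**
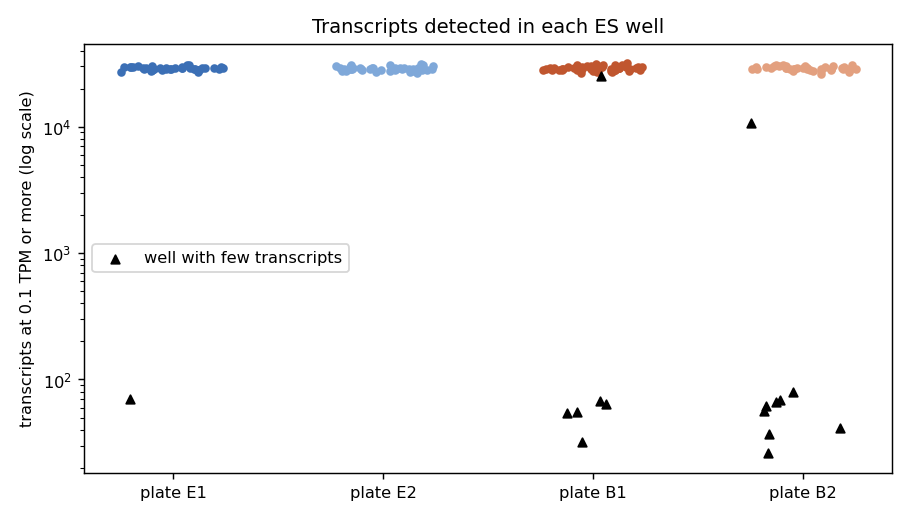
Transcripts detected at a TPM of at least 0.1 in each ES well (vertical axis, number, log scale) by plate (horizontal axis). Each point is 1 well, triangles are the 16 wells with few transcripts, 14 of which lie under 100, and the other ES wells lie between 26260 and 31606.

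The remaining ES wells were close to one another. Their medians were 29132 transcripts on E1, 28670.5 on E2, 28820.5 on B1 and 28859.5 on B2. With all wells the plate means gave 26804.5 ± 2216 in ES and 27287 ± 1275 in PrE cells (SD, n = 4 plates each), a difference of -483 (exact permutation test over plates, two-sided, p = 0.714). Without wells with few transcripts the direction turned, to 28896 ± 97.3 in ES against 28592 ± 134 in PrE cells, a difference of +304 (exact p = 0.0571). That second value is no independent test, since the wells were left out by the number of transcripts itself. The test took the plates as unpaired, and the smallest p that 4 plates against 4 then allow is 0.0286.

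Nuclear ribosomal RNA (rRNA) sequence and the main class of mRNA took similar shares of TPM in ES wells. The not-so-random primers are designed to avoid rRNA, so these are shares of the library and not of the RNA in a cell. Most of the rRNA share came from Mir6236, a single short entry given below (25% of TPM). Nuclear rRNA sequence made up 32.2% ± 1.41 of TPM (SD, n = 4 plates), protein-coding mRNA other than that for histones and ribosomal proteins 32.6% ± 0.852, pseudogenes 13.1% ± 0.321 and ribosomal protein mRNA 6.07% ± 0.271. Small structural RNAs of the misc_RNA class took 4.19%, the mitochondrial rRNAs 3.43%, long non-coding RNA 3.22% and snoRNAs, which guide rRNA modification, 0.815%. In PrE cells ribosomal protein mRNA stood at 4.34%, pseudogenes at 10.9%, long non-coding RNA at 2.12%, snoRNAs at 0.356%, other protein-coding mRNA at 38.2% and misc_RNA at 6.11%. In 7 of 14 classes the 4 ES plates and the 4 PrE plates did not overlap (exact p = 0.0286, the smallest this unpaired test allows). After Benjamini-Hochberg adjustment over the 14 classes none passed 0.05 (adjusted p = 0.0571).

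The 15 most abundant genes held 49.2% of ES TPM, and 10 of them were nuclear or mitochondrial rRNA sequence or signal recognition particle RNA. Mir6236 led at 250204 ± 8483 TPM (243347, 262476, 246153 and 248839 on E1, E2, B1 and B2), 25% of all TPM, with 237513 in PrE cells. It is annotated as a microRNA gene, but 28.3% of the 25-base words of its transcript occur in 28S rRNA, so reads from ribosomal RNA can be assigned to it. Gm24270, another annotated microRNA of the top 15, lies wholly in 28S rRNA, and its sequence is shown to make this visible. It is from the GENCODE transcripts on GRCm38, chr9:56223715-56223771 on the minus strand, with capitals marking the bases found as one run in 28S rRNA, which are all 57 of them.
Gm24270: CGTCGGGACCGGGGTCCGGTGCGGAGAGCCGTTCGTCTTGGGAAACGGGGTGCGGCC
Levels of these entries are read below as levels of rRNA sequence, not of microRNAs.

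The rest of the top 15 held rRNA and other entries, with the mRNAs Lars2 and Eef1a1 given further below. The pseudogene Gm15662 stood at 67074 TPM, a large part of the pseudogene share given above, and the 18S copy Rn18s-rs5 at 33422. The mitochondrial rRNAs mt-Rnr2 and mt-Rnr1 followed at 17433 and 16882, and the signal recognition particle RNA genes Rn7s1 and Rn7s2, which have the same values, at 16583 against 26434 in PrE cells. Gm26917, a long non-coding RNA, stood at 14799 TPM in ES and 7689 in PrE cells. It made up a large part of that class and of its difference from PrE cells. Its class is that of the annotation, and how far rRNA reads add to its level was not tested. Across ES cells Gm26917 moved with Gm42418 (r of 0.786 to 0.955 by plate). Gm24245 and Gm23935 had the values of Gm24270, 9070 TPM, and AY036118, of whose words 83.5% lie in 18S rRNA on the opposite strand, stood at 10785. Gm43558, an unspliced entry awaiting experimental support, stood at 5913 ± 421 in ES and 136 in PrE cells, and Gm43078, an entry of the same kind, at 1582 and 34.2. Their levels rose and fell together across ES cells (r of 0.871 to 0.929 by plate).

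Among nuclear protein-coding genes, without ribosomal proteins, Lars2, the mitochondrial leucyl-tRNA synthetase, led at 9078 TPM. Whether rRNA reads add to this level was not tested. Next came the translation elongation factor Eef1a1 at 5752 ± 332 (PrE 4079), the glycolytic enzyme Gapdh at 3088 ± 130 (PrE 2636) and the cytoskeletal actin Actb at 2845 ± 306 (PrE 5782). The chaperones Hsp90ab1 and Hsp90aa1 stood at 1933 and 1751. Dppa5a, an RNA-binding protein of pluripotent cells, stood at 1879 ± 173, with 2243 in PrE cells. Trim28, a co-repressor that silences retroviral elements in ES cells, had plate means of 1693, 1670, 1697 and 1720 TPM, and stood at 613 in PrE cells. With all wells, 15 of the 15 most abundant genes and 8 of the 10 most abundant nuclear protein-coding genes were the same. In total 15972 genes had an ES mean of at least 1 TPM, 6700 of at least 10 and 790 of at least 100.

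The 6 marker genes given for these cells were present in every cell and differed little between plates. Nanog, a homeobox factor of the pluripotency network, had plate means of 121.1, 97.6, 91.4 and 100.4 TPM on E1, E2, B1 and B2. Sox2, the partner of Oct4, had 77.4, 65.3, 69.1 and 78.8 TPM. Esrrb, an orphan nuclear receptor, had 179, 180, 196 and 195 TPM. All 4 plates of each of these 3 factors lay above every PrE plate. Trh, which encodes thyrotropin-releasing hormone, had 348, 392, 425 and 370 TPM. Tdgf1 (Cripto), a Nodal co-receptor, had 185, 165, 191 and 167 TPM. Zfp42 (Rex1), a zinc finger protein of naive cells, had 185, 161, 155 and 173 TPM. All 6 were at or above 1 TPM in 173 of 173 cells. As they were given as markers of these cells, this is no independent test of the label ES.

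**Figure D2:**
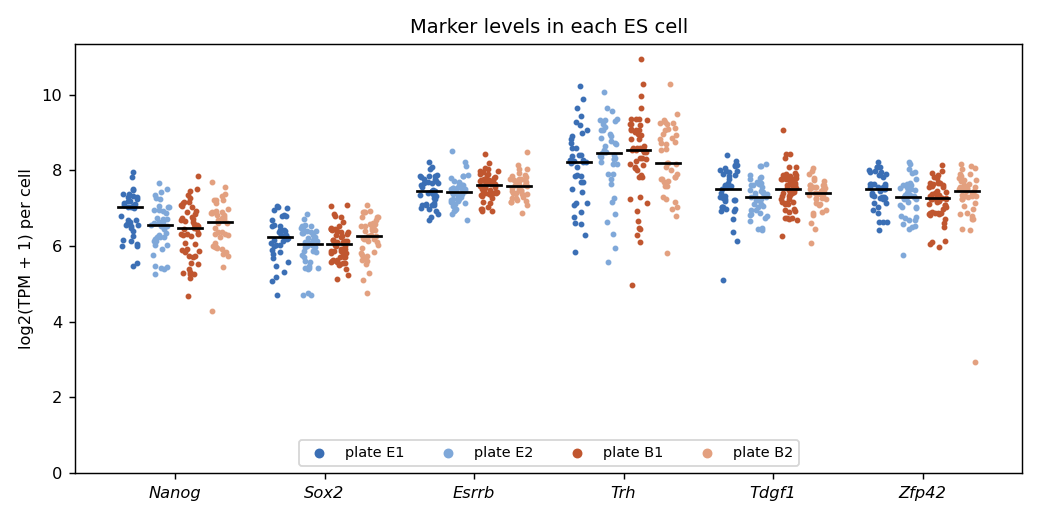
Level of the 6 marker genes in each ES cell (vertical axis, log2(TPM + 1)) by plate, without wells with few transcripts. Each point is 1 of 173 cells and bars are plate medians, and the plates overlap for each gene, with the widest spread between cells for Trh.

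Against PrE cells, the difference in log2(plate mean TPM + 1) was 8.37 for Trh (SE 0.08, limma adjusted p = 1.5e-10), 7.25 for Tdgf1, 6.50 for Esrrb (SE 0.19), 5.77 for Sox2, 5.28 for Nanog and 3.97 for Zfp42, and all 6 passed the test. Across the genome 29.1% of 16459 genes tested were higher in ES and 35.8% lower, with a median of -0.06. The 6 were given as markers of these cells, so their direction is no independent evidence. With all wells the values were 24.5% and 34.8% of 16202 genes, and Esrrb fell to 5.55. These fits did not pair the plates. With all wells and the plate as replicate block, the limma adjusted p was 1.1e-05 for Trh and 0.0021 for Esrrb.

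The 10 genes with the largest difference toward ES, without overlap of the plate means, were Trh, Gm24289 (7.97), Ifitm1 (7.58), an interferon-induced membrane protein, Tdgf1, the cationic amino acid transporter Slc7a3 (6.96), Lefty2 (6.62), a Nodal inhibitor, Esrrb, Nr0b1 (6.43), an orphan nuclear receptor of ES cells, Tdgf1-ps1 (6.36) and Fam25c (6.36). All 10 had adjusted p-values of at most 8.7e-09 (limma). Tdgf1-ps1 is a pseudogene of Tdgf1, and reads could be split between the copies, so the pair counts as uncertain. With all wells, 9 of the 10 were the same.

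Of the 19 genes of the naive pluripotency list, 18 were tested and 15 were higher in ES, 1 lower, with a median difference of 4.07. Pou5f1 stood at 418 ± 16.4 TPM in ES against 72.3 ± 13.2 in PrE cells (log2 difference 2.54, adjusted p = 3.2e-07), and Klf2, a Kruppel-like factor of naive cells, at 80.7 against 0.600. The member lower in ES was Sall4, a zinc finger factor also used in primitive endoderm, at 198 against 324 TPM (-0.71, adjusted p = 0.000196). Klf4 (76.1 against 85.9 TPM, adjusted p = 0.119) and Dppa5a (adjusted p = 0.0674) did not pass. Dppa3 (Stella) was almost absent, at 0.13 TPM and at or above 1 TPM in 7 of 173 cells, whereas Prdm14, a repressor of the primed state, stood at 9.46 TPM. Between ES cells these factors moved together only loosely. Over 136 pairs of naive genes with enough signal the median correlation was 0.125, with 48 pairs positive and 8 negative in all 4 plates. The same count over all gene pairs is not given, so the 48 and 8 are not read as a trait of these genes. Only Utf1 and Sall4 reached 0.4 in each (0.57, 0.50, 0.47 and 0.42). Nanog and Sox2 gave 0.57, 0.23, 0.51 and 0.65, Nanog and Zfp42 gave 0.47, 0.28, 0.38 and 0.56, and Tfcp2l1 and Utf1 were negative throughout (-0.27, -0.32, -0.34 and -0.64).

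Genes of other cell types were mostly low, with extracellular matrix genes as an exception. All 14 genes of the primitive endoderm list were lower in ES than in PrE cells (median difference -6.48). Its extracellular matrix members were still expressed in ES cells. Sparc stood at 92.4 TPM in ES against 4850 in PrE cells and Lama1 at 66.3 against 1859. Lamb1 stood at 15.2 against 1406 and Col4a1 at 12.8 against 1241. The defining transcription factors Gata4 (1.39 TPM), Sox17 (0.21) and Foxa2 (0.09) were near 0. The summed TPM of this list per ES cell ran from 58.2 to 531, with plate medians of 179 to 197, while PrE cells had plate medians of 10531 to 11896. None of the ES cells reached the lowest PrE cell, at 5871. Gata6, whose transcript is also carried by the transgene, stood at 73.3, 68.6, 81 and 81.3 TPM on the 4 plates and at 220 ± 10.9 in PrE cells, and reads from the transgene and the endogenous gene cannot be told apart in this table. Of the trophoblast list 3 genes were tested, with 2 lower in ES, and its sum per ES cell had plate medians of 1.67 to 2.47 TPM. Of the fibroblast list none of the 8 genes reached 1 TPM on average, Col3a1, Dcn and Lum were listed at 0, and plate medians of the sum were 0.803 to 1.58 TPM. The 13 genes of the Zscan4 list, which marks rare ES cells resembling the early cleavage embryo, summed to at most 3.16 TPM in any ES cell.

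Formative and signalling genes are read beside the shares over all genes, 29.1% higher and 35.8% lower in ES. Of the formative and primed epiblast list, 5 genes were tested: Lefty1, Lefty2, Nodal (18.7 against 0.292 TPM) and Otx2 (7.47 against 0.0156) were higher in ES, and the DNA methyltransferase Dnmt3b was lower (16.4 against 44). Fgf5, a marker of primed cells, had a mean of 0.123 ± 0.0740 TPM and was at or above 1 TPM in 5 of 173 cells. Of 11 genes of the signalling feedback list, which read FGF, BMP and Nodal activity, 7 were higher and 3 lower, with a median of 3.10, and Etv5 stood at 148 ± 5.14 against 3.17. Of the 10 immediate early genes 4 were higher and 1 lower (median 0.45), with Egr1 at 68.1 against 0.693, and a share of 4 of 10 is near that over all genes.

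Growth and metabolic lists differed in direction. Of 82 ribosomal protein genes tested, 71 were higher in ES and 1 lower (median 0.53), and with all wells 57 and none. Of 14 glycolysis and hypoxia genes, 11 were lower and 2 higher in ES (median -1.09), with the glucose transporter Slc2a3 at 424 ± 28.3 against 1097 ± 71 TPM and lactate dehydrogenase Ldha at 251 against 879. Of 20 G1/S genes 13 were higher and 1 lower (median 0.79), of 20 G2/M genes 6 and 3 (0.10), of 10 cholesterol synthesis genes 7 and 1 (0.97), and of 9 heat shock genes 5 and 2 (0.43). The amino acid and unfolded protein stress list split into 4 higher and 5 lower of 11. Of 63 histone genes tested 8 were higher and 11 lower (median -0.08), and of 28 genes of the mitochondrial genome 4 were higher and none lower (median 0.14). For comparison, the median over all genes tested was -0.06, with 29.1% higher and 35.8% lower.

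The variation between cells of a plate was ranked against genes of like mean. For each gene with at least 10 TPM on each plate, the log2 of the squared coefficient of variation (CV, the SD over the mean) was taken relative to a running median over 201 genes of similar mean, so a residual of 1 is a doubling of the squared CV. Of 6121 genes ranked, 208 (3.4%) were in the top 5% on each of the 4 plates and 64 (1.05%) in the bottom 5%. The ranking repeated between plates, with Spearman correlations of the residual of 0.836 to 0.856 across genes. With all wells it repeated less well (0.723 to 0.831), and 54 of 5736 genes (0.941%) were in the top 5% on each plate, all of them among the 208.

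**Figure D3:**
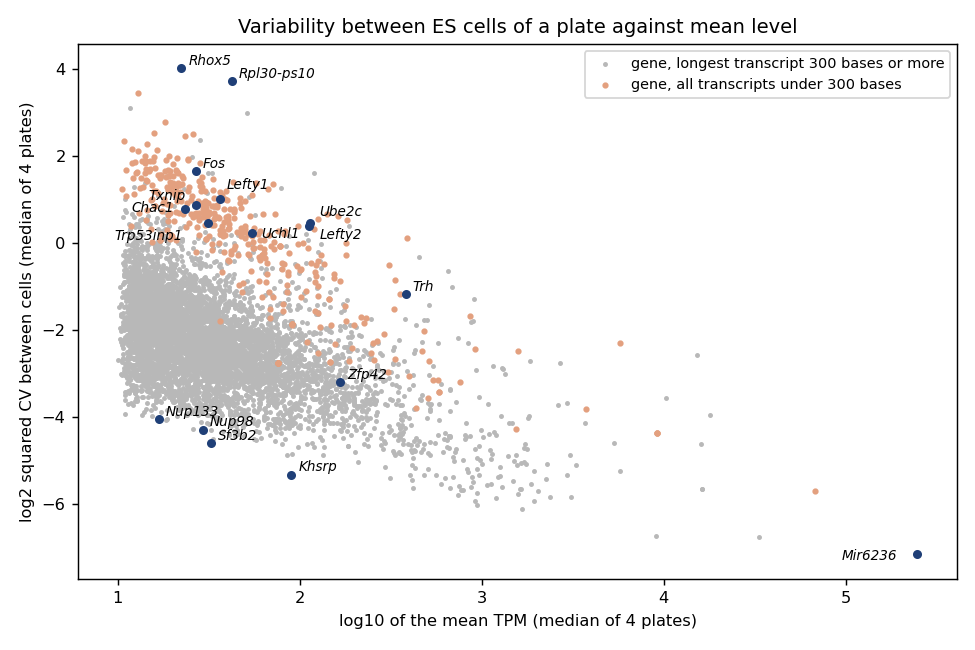
Variation between ES cells of a plate (vertical axis, log2 of the squared CV) against mean level (horizontal axis, log10 of mean TPM), median over the 4 plates, one point per gene (6121 genes), without wells with few transcripts. Orange points are genes with no transcript of 300 bases or more, dark points are named genes, and Rhox5 and Rpl30-ps10 stand highest while Khsrp and Mir6236 lie at the lower edge.

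Most of the highly variable genes were short. Their longest annotated transcript had a median of 125 bases, against 2908 for all ranked genes, and 81.2% were under 300 bases, against 6.21%. By class, 84 were annotated microRNAs, 47 snoRNAs or scaRNAs, 22 pseudogenes, 8 histone genes and 19 other protein-coding genes. The same genes also varied between wells that held no single cell: of 158 ranked in wells that each held an aliquot of 1 pooled lysate of G1 cells, 110 were in the top 5% there, and of 143 ranked in 96 wells of 10 pg of purified ES RNA, 125 were. The part of the measurement in the spread between cells was not tested. The 15 highest were Rpl30-ps10 (residual 6.06, CV 3.62), Rhox5 (5.91, CV 4.04), Rpl30-ps9 (5.56), Gm25692, Rpl19-ps11, mt-Tl1, Gm26231, Gm26269, Gm10925, Gm13611, Gm15516, Gm14303, Gm25195, Gm7331 and Mir667 (4.01). Rhox5 was the one among them that is a protein-coding mRNA of the nuclear genome with a named function. At the edge of the rule, Mir5121, Hist1h2bl and Hist1h2bp were just inside and Snora21, Gm27754 and Gm14539 just outside.

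Few mRNAs had high variation in cells without being ranked high in lysate or RNA wells. After the values were seen, the protein-coding genes with a transcript of at least 500 bases that were in the top 5% on each plate, and not in the top 5% of either reference set, were picked out, and 10 met this. Of these, Fos was not ranked in the RNA wells and Hist1h2bp not in the lysate wells, where their means were under 10 TPM, so for them that condition was not checked in those wells. Rhox5, an X-linked homeobox gene, was off in most cells and strongly on in a few. Its plate means were 17.9, 20.9, 30.7 and 23.7 TPM, yet 145 of 173 cells were under 1 TPM, 11 cells were at or above 100 (2, 2, 5 and 2 by plate), and the highest cell reached 540. In the lysate wells, where cells had been mixed, its CV was 0.212. Lefty1 and Lefty2, neighbouring inhibitors of Nodal on chromosome 1, were on at widely different levels: Lefty2 had plate means of 112, 96.7, 111 and 120 TPM, a median of 53.3 and 72 cells at or above 100. Lefty1 had plate means of 38.6, 30.4, 33.9 and 50.5, a median of 14.2 and a highest cell of 636. Their correlation was 0.584, 0.629, 0.615 and 0.637, though the copies share 25-base words, so part of the reads may be assigned to either.

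The other 7 genes were also expressed on every plate. Fos, an immediate early factor, had plate means of 40.4, 19.3, 28.8 and 24.8 TPM with a highest cell of 503 (residual 3.63). Ube2c, the ubiquitin-conjugating enzyme of the anaphase-promoting complex, had 112.9, 86.7, 115 and 121 TPM (residual 3.31). Txnip, a glucose-responsive inhibitor of glucose uptake (3.05), Chac1, a glutathione-degrading enzyme of the stress response (2.84), the deubiquitinase Uchl1 (2.77), the p53 target Trp53inp1 (2.73) and the histone gene Hist1h2bp (2.52) completed the set. Of Trp53inp1, 1 well with few transcripts on B2 held 85722 TPM, which lifted the B2 mean of all wells to 1775, against 31 without such wells.

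Of the 64 least variable genes 60 (93.8%) were protein-coding other than histone or ribosomal protein genes, against 85% of all ranked genes. Their longest transcript had a median of 3866 bases and their CV a median of 0.255, against 0.460 for all ranked genes. Khsrp, an RNA-binding splicing and decay factor, was lowest, with a mean of 89.8 TPM, a CV of 0.158 and a residual of -2.48. Mir6236, the entry that shares words with 28S rRNA, followed (-2.39), and then the spliceosome subunit Sf3b2 (-2.32), the nuclear pore protein Nup133 (-2.28), the splicing helicase Ddx46 (-2.23), Scaf11, Eml4, Tmem72, Nup98 and Ranbp2 (-2.14). In the uninduced 0 h ES cells, another experiment of the series, 44 of 63 of the low genes ranked were again in the bottom 5%, and 148 of 163 of the high genes in the top 5%.

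Gene lists lay on either side of the trend. The median residual was -0.01 over all ranked genes, 2.51 for 26 histone genes, 2.13 for 16 G2/M genes, 1.81 for 5 p53 targets, 1.16 for 11 glycolysis and hypoxia genes, 0.943 for 9 cholesterol synthesis genes and 1.11 for 19 genes of the mitochondrial genome. All ranked histone, G2/M and glycolysis genes had a residual above 0. The same held for all ranked members of the cholesterol, mitochondrial genome, amino acid stress, immediate early, formative and primitive endoderm lists. Over all genes ranked, 3034 of 6121 were above 0. The 17 naive pluripotency genes ranked were at -0.04 and the 6 markers at 0.09, so at like mean they varied about as much as other genes in these wells. In the lysate wells, which held no single cell, the medians were -1.04 for the naive genes and -1.08 for the markers. There the G2/M genes were at -0.62, the histone genes at 0.15 and the genes of the mitochondrial genome at 0.67. The part of the measurement in these residuals was not tested. Trh was the most variable of the markers (CV 0.66, residual 2.60), Dppa5a the most variable of the naive genes (2.18), and Pou5f1 had a CV of 0.19. The 81 ribosomal protein genes lay below the trend (median -0.57, CV 0.189, with 14 of 81 above 0), and the 7 heat shock genes at -0.34. Medians were 0.63 for the amino acid and unfolded protein stress list, 1.34 for the immediate early list, 1.24 for the signalling feedback list, 1.79 for the formative list, 0.60 for the 4 primitive endoderm genes ranked and 0.09 for the G1/S list.

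Against PrE cells, the residual variation was tested over plates for 5209 genes. It was higher in ES cells for 125 genes (2.4%) and lower for 235 (4.51%). With all wells, 9 (0.183%) and 40 (0.814%) of 4913 passed, and all 49 were among the 360. With the plate as replicate block the all-well calls fell to 0 (583 at an unadjusted p under 0.05), while the 360 became 383. Higher in ES were Rhox5 (+3.31, SE 0.26, limma adjusted p = 6.0e-09), Plaur (2.41), the urokinase receptor, the glycolytic enzyme Aldoa (2.13), Rpl30-ps10 (1.90) and the p53 target Phlda3 (1.82). With all wells Rhox5 and Plaur passed (limma adjusted p = 0.00328 and 0.0351). Aldoa, Rpl30-ps10 and Phlda3 did not (limma adjusted p = 0.0763, 0.0645 and 0.0589). Rhox5 stood at 139 TPM in PrE against 23.3 in ES cells, a log2 difference in level of -2.55 (adjusted p = 6.2e-07). On the log2 scale the sign of 2 of these turned: measured as the variance of log2(TPM + 1), Rhox5 gave -1.12 (adjusted p = 0.0121) and Rpl30-ps10 -1.35 (adjusted p = 0.00987). Lower in ES were Tmem72 (-4.19, adjusted p = 0.0289), RP23-191I16.5 (-4.03), Gm42860 (-3.86), Pou5f1 (-3.38, adjusted p = 7.1e-09) and Csrp2 (-3.34). With all wells Gm42860, Pou5f1 and Csrp2 passed, and Tmem72 and RP23-191I16.5 did not (limma adjusted p = 0.463 and 0.439). Without the highest cell of each gene, Tmem72 came to 0.25 and RP23-191I16.5 to -0.16 (adjusted p = 0.77). Without plate E1 both also missed the threshold, at -3.47 (adjusted p = 0.249) and -3.63 (adjusted p = 0.171).

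By list, 3 of 5 p53 targets (Phlda3, Ccng1 at 1.51 and Trp53inp1 at 1.27) and 4 of 10 glycolysis and hypoxia genes were more variable in ES, and none less. Of 14 G2/M genes Hmmr, a spindle protein, was more variable (1.36, adjusted p = 0.00144). Of 15 G1/S genes 5 were less variable, and of 80 ribosomal protein genes 6. No gene of the 22 histone genes tested passed in either direction by limma (with all wells none of 21). Over all genes tested 2.4% were more and 4.51% less variable in ES, so 1 of 14 and 6 of 80 are not read as traits of those lists. With all wells, 1 of 10 glycolysis and hypoxia genes was more variable. None of the p53, G2/M, G1/S and ribosomal protein genes passed then.

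Genes that rose and fell together between cells were sought among the 500 most variable. Of 124750 pairs, 327 (0.262%) had a Pearson correlation of log2(TPM + 1) of at least 0.4 on each of the 4 plates, and with all wells 461 (0.37%), of which 307 were shared. The wells with few transcripts set the baseline: the median correlation over all pairs was 0.0033 to 0.0064 by plate without them and up to 0.271 with them, on B2. Of the 327 pairs, 314 fell into 6 connected groups of 3 or more genes with 57 genes in all, and 33 pairs shared 25-base words. These correlations are across cells that share a plate and a preparation, and are given as a description. The groups were chosen by their correlation on these same ES plates, so their values there are high by that choice. Higher medians in ES than in PrE or other cells below are therefore not read as a difference between cell types.

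**Figure D4:**
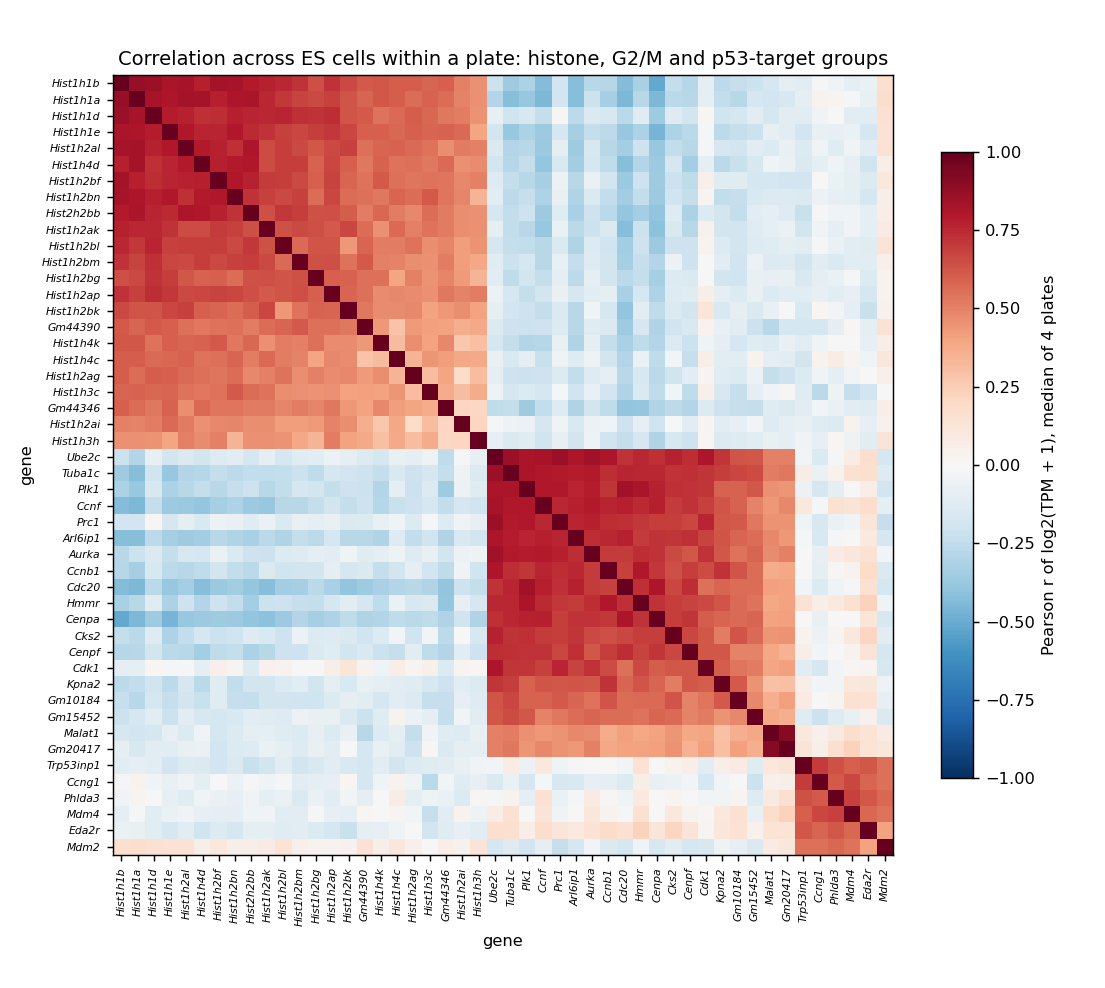
Pearson correlation of log2(TPM + 1) between the genes of the 3 largest co-varying groups, median over the 4 ES plates, without wells with few transcripts (colour scale, r from -1 to 1). The blocks along the diagonal are the histone group (23 genes), the G2/M group (19 genes) and the p53 group (6 genes), and most correlations between the histone and G2/M blocks are below 0.

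The largest group was 23 genes of replication-dependent histones or within them. It was led by the linker histones Hist1h1b, Hist1h1a, Hist1h1d and Hist1h1e, followed by Hist1h2al, Hist1h4d, Hist1h2bf and Hist1h2bn. Its median correlation was 0.608, 0.651, 0.555 and 0.518 on E1, E2, B1 and B2, 0.518 to 0.666 in PrE cells, 0.786 in the 0 h cells and 0.427 to 0.556 in sorted cells. In the RNA wells it was 0.0312 and in the lysate wells 0.149. Replication-dependent histone mRNAs end in a stem-loop, carry no poly(A) tail and are made in S phase. The mean log2(TPM + 1) over the group was 4.53, 4.25, 3.91 and 4.08 by plate. In ES cells of the series sorted by DNA content it was 3.36 in G1, 4.30 in S and 2.96 in G2/M. In the 0 h cells it was 5.04, above that of each sorted phase. Single cells on the 4 plates ran from 0.781 to 7.29. The 0 h, sorted and lysate wells came from other experiments of the series, with a median of 38501 to 41258 transcripts detected against 28822 on the plates, and the methods name the advanced protocol for the plates only, so protocol and experiment cannot be told apart when levels are set side by side. The group holds 2 entries annotated as microRNAs, Gm44390 and Gm44346, at 142 and 182 TPM. Of the 25-base words of Gm44346, 100% lie in Hist1h2ap on the opposite strand, and of Gm44390 95.8%, and as the counting did not use strand they cannot be told apart from H2A mRNA. The sequence of Gm44346 (chr13:21786875-21787015, plus strand, GRCm38, in capitals because all of it is shared) and of the promoter of Hist1h1b follow. The promoter window runs from 250 bases before to 50 after the start, chr13:21780576-21780875 on the minus strand of GRCm38.p6 from RefSeq, with the motif TATAAA, the motif ATTGG, and the motif AAACACA, each on either strand, in capitals.
Gm44346: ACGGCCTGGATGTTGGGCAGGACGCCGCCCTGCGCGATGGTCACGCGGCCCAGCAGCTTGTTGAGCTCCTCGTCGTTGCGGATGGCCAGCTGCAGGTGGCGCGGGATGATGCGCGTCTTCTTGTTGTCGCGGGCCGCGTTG
Hist1h1b: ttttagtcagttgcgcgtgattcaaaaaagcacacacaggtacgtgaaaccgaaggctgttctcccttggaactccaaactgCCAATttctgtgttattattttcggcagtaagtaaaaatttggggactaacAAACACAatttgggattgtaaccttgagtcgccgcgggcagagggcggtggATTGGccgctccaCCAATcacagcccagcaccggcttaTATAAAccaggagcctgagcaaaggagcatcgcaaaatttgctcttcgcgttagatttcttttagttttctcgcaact
In this window TATAAA occurs 1 time, ATTGG, the core of the CCAAT box, 3 times and AAACACA, an element of H1 promoters, 1 time. The window of Hist1h1a held them 1, 1 and 0 times.

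The second group was 19 genes, most of them needed for mitosis. Ube2c, Tuba1c, the kinase Plk1, Ccnf, Prc1, Arl6ip1, the kinase Aurka and cyclin B1 (Ccnb1) led it, with Cdc20, Hmmr, Cenpa, Cks2, Cenpf, Cdk1 and Kpna2 among the others. Its median correlation was 0.681, 0.620, 0.675 and 0.684 by plate, 0.393 to 0.542 in PrE cells, 0.602 in the 0 h cells, 0.362, 0.356 and 0.710 in sorted G1, S and G2/M cells and 0.0169 in the RNA wells. The mean log2(TPM + 1) was 5.79, 5.60, 5.58 and 5.82 by plate and 5.89 in the 0 h cells, against 4.85 in sorted G1, 5.76 in S and 7.30 in G2/M cells. Single genes showed the same order, and Ube2c stood at 14.2 TPM in G1, 35.3 in S and 203 in G2/M cells. Across cells, the mean of the histone group and the mean of this group were negatively correlated, at -0.133, -0.390, -0.262 and -0.373 by plate and -0.674 in the 0 h cells. In sorted cells it was 0.266 in G1, -0.295 in S and -0.358 in G2/M, in PrE cells 0.0712 to 0.588 by plate, and in the 9 lysate wells, which held no single cell, -0.660, so the sign was not the same in every set. Malat1, a nuclear long non-coding RNA, was linked to the mitotic genes by Arl6ip1 alone (r of 0.401 to 0.542 by plate). The overlapping Gm20417 was linked through Malat1 only. Gm15452, a pseudogene all of whose words lie in Cks2, shares reads with it. Promoter windows of 3 members are shown, with TTTGAA, the core of the cell cycle homology region, and ATTGG or their reverse complements in capitals: Plk1 (chr7:122159185-122159484, plus strand), Cdc20 (chr4:118437294-118437593, minus strand) and Ube2c (chr2:164769679-164769978, plus strand), all GRCm38.p6 from RefSeq.
Plk1: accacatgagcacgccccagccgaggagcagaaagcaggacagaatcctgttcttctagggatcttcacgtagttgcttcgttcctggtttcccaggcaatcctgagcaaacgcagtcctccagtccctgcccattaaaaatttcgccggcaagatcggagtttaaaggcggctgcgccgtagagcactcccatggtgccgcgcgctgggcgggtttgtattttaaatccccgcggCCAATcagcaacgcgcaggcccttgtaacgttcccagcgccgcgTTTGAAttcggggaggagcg
Cdc20: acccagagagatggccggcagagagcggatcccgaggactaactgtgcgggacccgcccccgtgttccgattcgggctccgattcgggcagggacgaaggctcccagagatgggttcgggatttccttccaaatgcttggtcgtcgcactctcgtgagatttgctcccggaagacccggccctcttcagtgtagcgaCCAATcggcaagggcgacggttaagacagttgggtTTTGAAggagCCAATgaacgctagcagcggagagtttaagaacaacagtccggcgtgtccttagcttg
Ube2c: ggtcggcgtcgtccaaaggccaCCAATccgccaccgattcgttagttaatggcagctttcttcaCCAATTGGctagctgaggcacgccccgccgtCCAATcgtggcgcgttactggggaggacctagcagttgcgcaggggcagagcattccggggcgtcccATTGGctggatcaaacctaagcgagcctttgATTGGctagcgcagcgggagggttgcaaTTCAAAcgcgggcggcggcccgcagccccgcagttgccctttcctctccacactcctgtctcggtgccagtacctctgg
TTTGAA occurs 1 time in each, and ATTGG 1 time in Plk1, 2 times in Cdc20 and 6 times in Ube2c, where 2 of the matches overlap as CCAATTGG. The window of Ccnb1, another leading gene of the group, held TTTGAA 0 times and ATTGG 2 times.

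The letters were counted on both strands in every RefSeq window of 300 bases, 32851 in all. ATTGG was present in 37.4% of all windows, in 18 of 19 windows of the histone group and in 16 of 17 of the G2/M group. TTTGAA was in 17.9% of all windows, in 13 of 19 and in 12 of 17. TATAAA was in 13.6% of all, in 12 of 19 histone windows and in 0 of 17 G2/M windows, and AAACACA in 7.18% of all, in 4 of 19 and 0 of 17. GGGCGG, the GC box, was in 35.7% of all, in 9 of 19 and in 13 of 17. In the 6 windows of the third group TTTGAA was in 0 and ATTGG in 3. These matches describe the windows and are not evidence of binding.

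The third group was 6 genes of the p53 response: Trp53inp1, Ccng1, Phlda3, Mdm4, Eda2r and Mdm2, the ubiquitin ligase that degrades p53. Its median correlation was 0.562, 0.611, 0.581 and 0.653 by plate, 0.185 to 0.533 in PrE cells, between 0.678 and 0.762 in the 0 h and sorted cells, and 0.0661 in the RNA wells. The mean log2(TPM + 1) was 4.48, 4.50, 4.69 and 4.64 by plate, with single cells from 2.38 to 7.32, and 6.60, 6.15, 6.20 and 6.36 in PrE cells of the same plates. By sorted phase its level was 5.10 in G1, 5.27 in S and 5.19 in G2/M cells, and in the 0 h cells 3.82, below each of these. In level, 7 of 9 genes of the p53 target list were lower in ES than in PrE cells and none higher (median -1.91), beside 35.8% lower and 29.1% higher of all genes, and with all wells 6 of 9 were lower. Mdm2 stood at 34.1 ± 1.78 against 131 ± 15 TPM and Ccng1 at 28.3 against 149.7. Mdm4, which was not in that list, was higher in ES (96.2 against 56.7 TPM). With all wells Trp53inp1 did not pass and its sign turned (0.41, adjusted p = 0.793), with the well of 85722 TPM included.

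**Figure D5:**
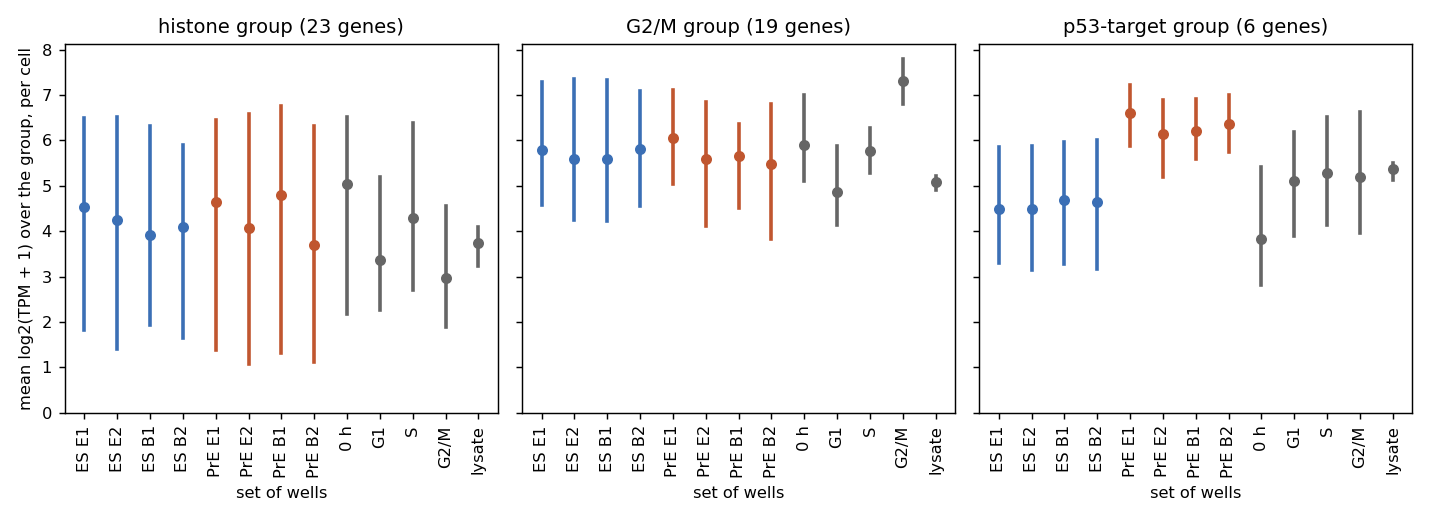
Mean log2(TPM + 1) over the genes of the histone, G2/M and p53 groups (vertical axis) in ES and PrE cells of the 4 plates, in ES cells of the series at 0 h or sorted by phase, and in lysate wells (horizontal axis), without wells with few transcripts. Points are means over cells and bars run from the 10th to the 90th percentile of cells, with the G2/M group highest in sorted G2/M cells (mean 7.30) and the p53 group higher in PrE than in ES cells.

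The 3 smaller groups were of repeated or unexplained sequence. Gm26870, Gm10801 and Gm10800 share words with one another, and Gm27857, Gm23638 and Gm23681 are identical in sequence, so their correlation of 1.00 follows from the counting. The remaining group held the pseudogene Gm10780, Reg2, a secreted lectin of the Reg family, and the antisense entry Gm43956. Outside groups of that size, Rian and Mirg, non-coding RNAs of the imprinted Dlk1-Dio3 cluster, had correlations of 0.594 to 0.860. Rian stood at 511 ± 30.9 TPM in ES against 199 ± 29.3 in PrE cells and Mirg at 40.4 against 13.4. Rian was 1.37 higher in ES (adjusted p = 7.5e-06) and less variable at like mean (-2.10, adjusted p = 3.5e-06). With all wells its difference in level was 0.65 (adjusted p = 0.361), and 1 ES cell of E2 had 0.355 TPM where the E2 median was 416.

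Plates added little to the differences between cells. The share of the variance of log2(TPM + 1) that lay between plates had a median of 0.00661 over 6121 genes, and 292 (4.77%) were at or above 0.1. With all wells the median was 0.0410. The largest share was that of mt-Rnr2, the mitochondrial large rRNA (0.616), at 22810, 19357, 11036 and 16528 TPM on E1, E2, B1 and B2. PrE cells of the same plates had the same order, at 24624, 21098, 10922 and 17807. Gm29216 (0.493), mt-Nd5 (0.452), a subunit of respiratory complex I, Atp5j2 (0.449), the pseudogene Gm15500 (0.431) and mt-Co1 (0.411) followed.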

How the data were processed

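RamDA-seq wells of 5G6GR ES and PrE cells from 4 plates were analysed. Per the methods, the authors quantified trimmed reads with Sailfish against GENCODE vM9 transcripts (GRCm38), strand not used, and deposited unpooled TPM for each transcript in each well. Here TPM were summed per gene. Estimated counts, deposited by the authors for 96 wells of 10 pg RNA, were converted to TPM for the CV and correlation in those wells only, and their summed count per well was 645120 to 687849. For the cell wells TPM carry no depth, so no counting interval is given.

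Cells are not replicates, so plate means (4 ES and 4 PrE) were set against each other in two-sided exact permutation tests, or across all genes by limma on log2(plate mean TPM + 1), for genes with a mean of at least 1 TPM, with Benjamini-Hochberg adjustment at 0.05. Residual variability used the squared CV, a running median over 201 genes and genes of at least 10 TPM in each plate and cell type, again tested by limma. Scripts were tested on simulated data. Fits ran in limma 3.58.1 under R 4.3.3, and all else in Python 3.11.15 with scipy 1.17.1 and pandas 2.3.3. The design used all wells, with wells with few transcripts left out as an alternative. After seeing the data, the values without those wells were put first in the text, and the same further alternatives were added for the reduced wells after seeing the data.

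Plates pair the groups, because ES and PrE values of a gene's residual deviated together on each plate (r over 5209 genes of 0.459, 0.349, 0.391 and 0.255 on E1, E2, B1 and B2). The exact tests and the main fits did not use this pairing, and a further fit with the plate as replicate block was made. Members and gene lists were chosen with earlier results of these data known. Named genes were the markers, the 15 most abundant genes and 10 most abundant nuclear protein-coding genes, the 15 most and 10 least variable, up to 8 per co-varying group, the 10 largest differences in level, 5 in each direction in variability, and list members. Genes outside this rule are named as chosen after their values were seen, as are the single pairs, the genes with large plate shares and the remaining members of a group. Some members of these sets are not reported here. Tables of other protocols, of larger RNA amounts and of merged gene models were not used here.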

Additional observations from a re-analysis of the deposited data

Results flagged for a closer look

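Within the 4 ES plates, 85 quantities named in the text were searched for a single plate far from the other three by Dixon's ratio at 95%, and 7 stood apart. Chance alone gives about 1 in 20 such groups, so a few are expected among 85. Without wells with few transcripts, the mean number of transcripts detected per ES well was lowest on E2, at 28750, against 28937 to 28953 on the other plates. Rn7s1 and Rn7s2, signal recognition particle RNA genes with the same values, were highest on B1, at 17777 TPM against 16132 to 16265. The residual variability of mt-Tl1, a mitochondrial tRNA gene, was lowest on E1 (3.92, against 4.63 to 4.77), and that of Gm25195 lowest on B2 (3.51, against 4.12 to 4.21). The residuals of Ddx46 and Ranbp2, both among the least variable genes, were closest to the trend on E1, at -1.62 (against -2.26 to -2.21) and -1.67 (against -2.17 to -2.14).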

How the results depend on the processing

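The wells with few transcripts moved more values than any other choice. With all wells the difference in detected transcripts, ES minus PrE, was -483, and it turned to +304 without those wells and to +253 (exact p = 0.0286) with the median over cells. The number of genes variable on each plate, 54 with all wells, was 208 without those wells, 167 with the variance of log2(TPM + 1), 201 without the highest cell of each gene, 0 at a mean of at least 50 TPM, and 51 to 137 with 1 plate left out (137 without B2). Without those wells it was 48 at a mean of at least 50 TPM. The 461 co-varying pairs became 819 at r of at least 0.3 and 443 to 1517 with 1 plate left out (1517 without E2). The median between-plate share, 0.0410, was 0.00661 without those wells and 0.0126 (without B2) to 0.0756 (without B1) with 1 plate left out. The 9593 genes called in level became 4514 at a mean of at least 10 TPM, where 7086 genes were tested, and kept within 1.5 times under the other settings.

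For residual variability, 49 genes were called by limma with all wells. This became 360 without those wells, 171 without the highest cell of each gene, 6 at a mean of at least 50 TPM, and 5 to 35 with 1 plate left out (6 without E1, 12 without E2, 5 without B1). It became 0 with the variance of log2(TPM + 1) (215 at an unadjusted p under 0.05) and 0 with the plate as replicate block (583 unadjusted). Without those wells the 360 calls became 383 with the replicate block, 91 at a mean of at least 50 TPM, and 195 to 300 with 1 plate left out (217 without E1, 195 without E2, 237 without B2). The block changed no call count in level by over 1.5 times. With the variance of log2(TPM + 1) the sign turned for Rhox5 (-0.21 with all wells, -1.12 without those wells) and Rpl30-ps10 (-1.06 and -1.35), and without the highest cell for Tmem72 (0.25 both ways). Causes were not tested, and depth is unknown.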
